A study of Mus musculus with 8 samples.

Results

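The 31 genes described here are Trp53, which encodes the transcription factor p53, its regulators, the kinases that signal DNA damage, and p53 target genes outside the BCL2 family and the CDK inhibitors. They were taken by gene symbol from the deposited annotated array table, where all 31 were found among 21104 genes, 30 of them with 1 probe set and Ppm1d with 2. Their RNA was measured in haematopoietic stem cells that had been sorted from bone marrow of C57Bl/6 mice without treatment, with 1 Affymetrix array for each of 8 pools of cells. Each pool combined the bones of 3 mice. The 4 KO pools came from Vav-Cre;BMPR-II(fl/fl) mice, in which a Cre transgene driven by Vav in blood cells deletes exons 4 and 5 of Bmpr2, a receptor for bone morphogenetic proteins. The 4 WT pools came from littermates without Vav-Cre, of which 1, 0, 1 and 2 mice in pools 1 to 4 were BMPR-II(fl/fl), 2, 3, 1 and 1 were BMPR-II(fl/+), and 1 mouse of pool 3 was BMPR-II(+/+). Because only KO mice carried Cre, the transgene and the loss of Bmpr2 cannot be told apart. The comparison asks whether the p53 and damage response transcripts differ in stem cells that lack this receptor.

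p53 is kept low in unstressed cells by the ubiquitin ligase MDM2 and its relative MDM4. When DNA is broken or replication stalls, the kinases ATM and ATR and their partners CHK2 and CHK1 modify p53 and MDM2, p53 accumulates, and it raises the transcription of genes for growth arrest, DNA repair and cell death, and of Mdm2 itself. In haematopoietic stem cells p53 is known for holding cells out of cycle and for removing damaged ones. Much of this control acts on protein, which these arrays do not measure.

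Values are log2 levels made by the authors with RMA, a method that corrects background, makes the arrays alike in their distribution and combines the probes of a probe set. A difference of 1 on this scale is a doubling, and differences are KO minus WT. Array medians ran from 5.58 to 5.63 in the KO group and from 5.63 to 5.69 in the WT group. The deleted gene Bmpr2 was at 7.22, 6.64, 6.70 and 6.91 in KO pools 1 to 4, against 8.09, 7.63, 7.05 and 7.83 in WT pools 1 to 4. KO pool 1 lay above WT pool 3, and the difference of -0.79 had a limma adjusted p of 0.967. Among transcripts of the stem cell gate and of stem cell identity, Kit averaged 10.19 ± 0.30 in KO and 10.35 ± 0.18 in WT, Slamf1 (CD150) 7.17 ± 0.35 and 6.90 ± 0.23, Cd9 8.91 ± 0.65 and 8.91 ± 0.62, Procr 7.58 ± 0.43 and 7.71 ± 0.13, Mecom 7.76 ± 0.35 and 7.87 ± 0.31, and Hlf 10.04 ± 0.31 and 10.21 ± 0.24 (KO first, SD, n = 4 each). Mecom had 2 probe sets, and its values here are those of the brighter, with a difference of -0.1. With the mean of its probe sets the Mecom difference was -0.39. Of 14 stem cell markers 6 had a higher and 8 a lower mean in KO, and leaving out KO pool 3 gave 8 and 6.

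The DNA element that p53 binds is a pair of 10-base half-sites, so a single half-site is only part of it. RefSeq promoter windows of build GRCm38.p6 ran from 250 bases before to 50 after the start site. They were searched for the p53 consensus half-site by exact match. The half-site reads the same on both strands, so 1 search covers both. A window was listed for 24 of the 31 genes, and Zmat3, Trp53inp1, Tnfrsf10b, Perp, Rrm2b, Xpc and Ddb2 were not searched. A half-site was found in 10 of the 24 (41.7%), in 8 of 31 genes with a window among 34 further p53 target genes (25.8%), and in 2582 of 27025 genes overall (9.55%). A match describes these letters and does not show binding. Genes are known as p53 targets in part through such elements, so the higher share is partly built into the list. The matching half-sites are given below, and whether p53 acts through them was not tested. Each is shown 5′ to 3′ on the gene's strand, with the half-site in capitals.

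Trp53 (chr11:69580274-69580303, plus strand): acccacggaaGGACTTGCCCttacttgtta
Mdm2 (chr10:117710925-117710954, minus strand): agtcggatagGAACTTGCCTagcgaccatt
Ppm1d (chr11:85311112-85311141, plus strand): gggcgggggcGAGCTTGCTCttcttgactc
Pml (chr9:58249911-58249940, minus strand): cccgcatgccGGGCTTGTTTacttgcttgt
Ccng1 (chr11:40755452-40755481, minus strand): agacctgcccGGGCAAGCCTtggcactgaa
Gadd45a (chr6:67037428-67037457, minus strand): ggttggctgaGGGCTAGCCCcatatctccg
Sesn1 (chr10:41887256-41887285, plus strand): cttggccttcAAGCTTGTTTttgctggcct
Aen (chr7:78895927-78895956, plus strand): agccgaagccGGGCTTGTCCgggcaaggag
Ei24 (chr9:36797325-36797354, minus strand): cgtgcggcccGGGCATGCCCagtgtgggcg
Polk (chr13:96519399-96519428, minus strand): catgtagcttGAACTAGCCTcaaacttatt

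A full 20-base element, both half-sites side by side with at most 1 mismatch, was found for 1 of the 24 genes, Ccng1, and for 29 of 27025 genes overall (0.107%). The 250 bases upstream of Ccng1 and of Gadd45a are shown because these are the members with a window that had an unadjusted p under 0.05 and a half-site. Capitals mark the 20-base element of Ccng1, which begins 195 bases before the start site, and the half-site of Gadd45a, which begins 40 bases before it.

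Ccng1 (chr11:40755287-40755536, minus strand): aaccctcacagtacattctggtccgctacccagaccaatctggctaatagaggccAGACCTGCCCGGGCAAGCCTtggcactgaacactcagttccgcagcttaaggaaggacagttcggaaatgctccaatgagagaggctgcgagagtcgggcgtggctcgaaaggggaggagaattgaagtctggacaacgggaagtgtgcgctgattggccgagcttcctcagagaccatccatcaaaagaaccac
Gadd45a (chr6:67037408-67037657, minus strand): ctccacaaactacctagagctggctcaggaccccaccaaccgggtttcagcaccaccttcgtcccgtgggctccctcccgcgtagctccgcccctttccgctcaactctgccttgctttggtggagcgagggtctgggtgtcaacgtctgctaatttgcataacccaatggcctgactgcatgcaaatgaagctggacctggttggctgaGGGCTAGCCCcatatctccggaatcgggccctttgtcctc

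Across the 31 genes no shared shift was seen between KO and WT stem cells. The mean was higher in KO for 14 genes and lower for 17 (45.2% higher, against 48.7% of all genes tested, of which 51.3% were lower), and the median difference was -0.03 on the log2 scale, against -0.004 over all genes. No gene of the list passed limma's test over all genes, which called 0 of 21104 (0%) at an adjusted p under 0.05, with 960 at an unadjusted p under 0.05. The members' adjusted p lay between 0.967 and 1. Without adjustment, 4 of the 31 had a p under 0.05 (12.9%, against 4.55% of all genes), Gadd45a, Plk2 and Ddb2 lower and Ccng1 higher in KO, where 2.25% of all genes were lower and 2.3% higher at that threshold. For none of the 31 were all KO pools on one side of all WT pools, which was so for 2.58% of all genes. A fold of at least 1.5 separated the means for Gadd45a and Plk2, and for 0.611% of all genes. The number at an unadjusted p under 0.05 rested on single pools: leaving out KO pool 3 left 2 (Ccng1 and Gadd45a), leaving out WT pool 2 left 1 (Gadd45a), and leaving out WT pool 3 gave 6.

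**Figure D1:**
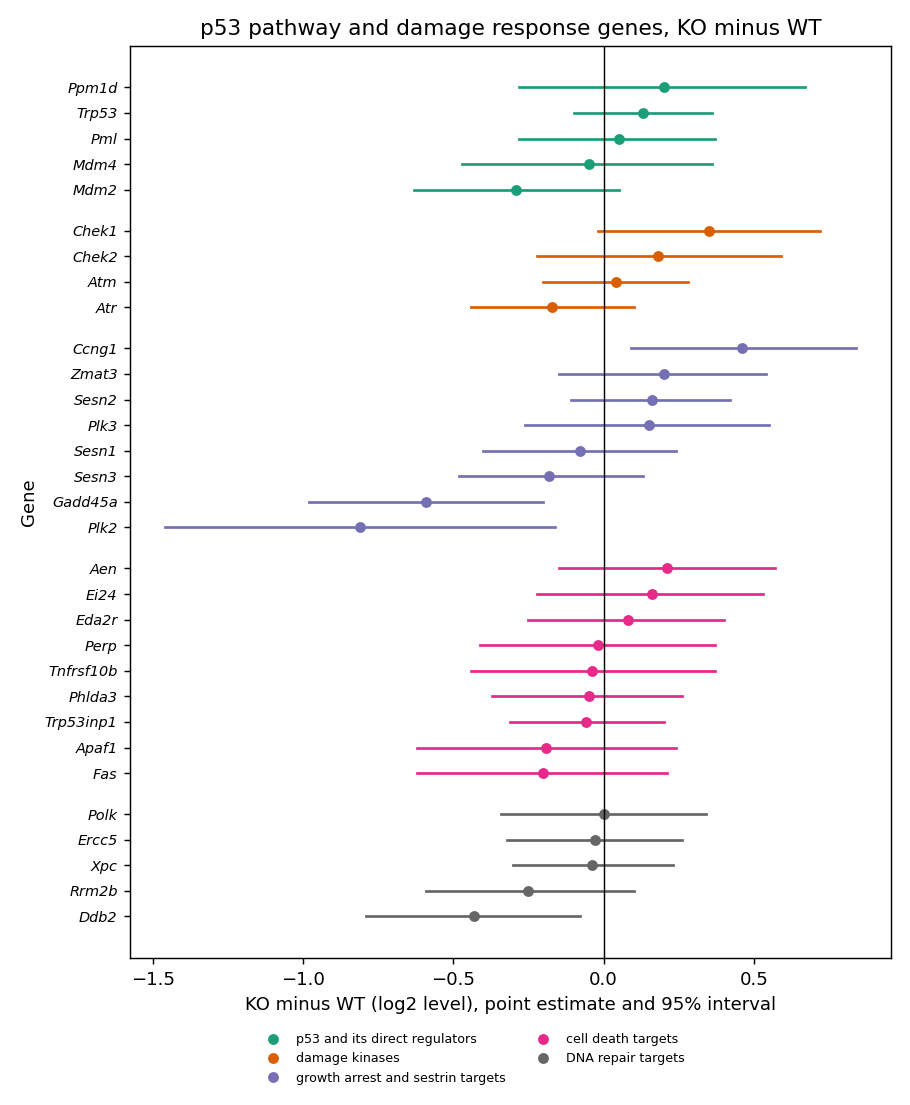
KO minus WT on the log2 scale (horizontal axis) for each of the 31 genes (vertical axis), as the limma estimate (points) with its 95% interval (lines), coloured by role, n = 4 pools per group. The intervals of Plk2, Gadd45a and Ddb2 lie below 0 and that of Ccng1 above 0, and the other 27 include 0, before any adjustment over genes.

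Each interval gives the differences in RMA level that the values of 1 gene allow, before any adjustment over genes. It does not bound the difference in RNA amount where RMA compresses dim probe sets. Of the 31 genes, 24 averaged above 5.8, the median level of all genes, and the others were dimmer. For 20 of the 31 genes the 95% interval lay within 1.5-fold in both directions, and for 30 within 2-fold, with Plk2 as the exception. The median absolute difference between group means was 0.16 among the 31 and 0.10 over all genes, and the median SD within a group of 4 pools was 0.22 among the 31. The arrays measured bulk pools, so fewer cells expressing a gene and less RNA per cell cannot be told apart.

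Trp53 itself was at nearly the same level in both groups. It stood at 9.61, 9.40, 9.61 and 9.50 in KO pools 1 to 4, against 9.45, 9.47, 9.26 and 9.40 in WT pools 1 to 4. KO pool 2 lay within the WT range and the groups overlapped. The difference was 0.13 (95% interval -0.10 to 0.36), with an exact permutation p of 0.143 (2-sided, n = 4 each). Mdm2, both the main inhibitor of p53 and a p53 target, was at 8.32, 8.13, 7.74 and 7.72 in KO pools, against 8.20, 8.11, 8.22 and 8.53 in WT pools. KO pools 3 and 4 lay below every WT pool, while KO pool 1 lay above 3 of them. The difference was -0.29 (95% interval -0.63 to 0.05), or 1.22-fold lower, with an exact permutation p of 0.229 (n = 4 each).

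The other regulators of p53 differed by less than their spread. Mdm4, which masks the activation domain of p53, averaged 8.39 ± 0.34 in KO and 8.45 ± 0.29 in WT (SD, n = 4 each). In KO it was split in the same way as Mdm2, with pools 1 and 2 at 8.78 and 8.59 and pools 3 and 4 at 8.08 and 8.13. Pml, the scaffold protein of the nuclear bodies in which p53 is modified, averaged 8.33 ± 0.30 in KO and 8.29 ± 0.10 in WT, with KO pool 1 at 8.75 as the highest of all pools. Ppm1d encodes WIP1, a phosphatase that reverses ATM and p53 phosphorylation. It was at 7.46, 6.99, 7.13 and 7.22 in KO pools, against 7.35, 6.25, 7.24 and 7.17 in WT pools, so that WT pool 2 stood apart. The difference of 0.20 was -0.05 without WT pool 2, and the second Ppm1d probe set differed by 0.02 with all pools.

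**Figure D2:**
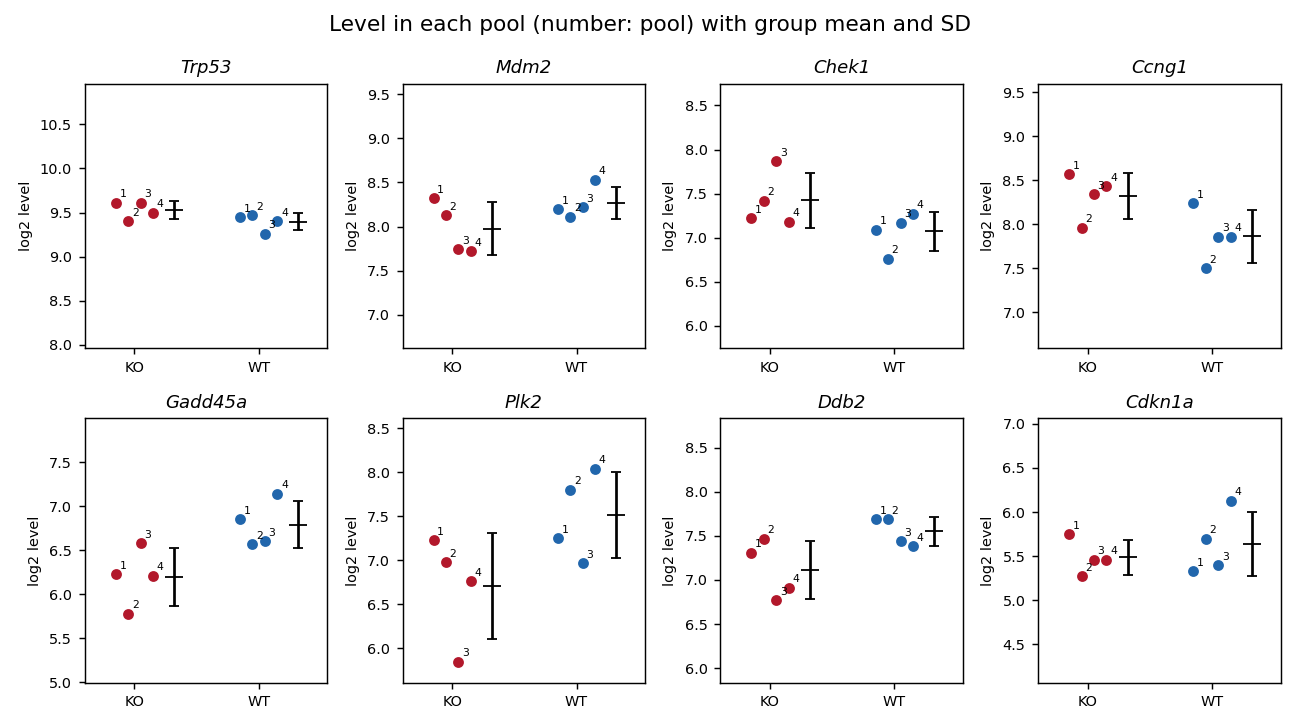
The log2 level (vertical axis) of 8 genes in each KO pool (red) and WT pool (blue), each point labelled with its pool number, with the group mean and SD (black), n = 4 per group; every panel spans 3 log2 units. The groups overlap in all 8 panels; Gadd45a overlaps only through KO pool 3 at 6.58 and WT pool 2 at 6.57.

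Among the damage kinases, Chek1 had the largest difference, and none passed the test. Atm, activated by double-strand breaks, averaged 7.63 ± 0.13 in KO and 7.59 ± 0.10 in WT. Atr, activated where replication stalls, averaged 7.37 ± 0.21 in KO and 7.54 ± 0.07 in WT (SD, n = 4 each), and KO pool 4, at 7.06, was its lowest. Chek1, the kinase downstream of ATR that restrains origin firing and entry into mitosis, was at 7.22, 7.42, 7.87 and 7.18 in KO pools, against 7.09, 6.76, 7.17 and 7.27 in WT pools. KO pools 2 and 3 lay above all WT pools. The difference was 0.35 (95% interval -0.02 to 0.72), or 1.27-fold higher, with an exact permutation p of 0.114 (n = 4 each), and it was 0.20 without KO pool 3. Chek2, the kinase downstream of ATM, was at 7.14, 6.99, 7.46 and 7.09 in KO pools, against 7.13, 6.42, 7.34 and 7.06 in WT pools. Its difference of 0.18 was -0.0066 without WT pool 2.

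Chek1 is transcribed in cycling cells, and a list of G2 and M phase genes had the same highest and lowest pool. All 24 G2 and M phase genes had a higher mean in KO, with a median difference of 0.31, and 4 had an unadjusted p under 0.05 (16.7%, against 4.55% of all genes). Their mean deviation from the 8-pool mean was -0.05, 0.00, 0.47 and 0.19 in KO pools, against -0.37, -0.52, 0.28 and 0.00 in WT pools. Chek1 and this list thus had the same highest pool, KO pool 3, and the same lowest pool, WT pool 2. The pools between did not all follow the same order. WT pool 3 lay above KO pool 2 for the list, while Chek1 was at 7.17 in WT pool 3 and at 7.42 in KO pool 2. Of 24 S phase genes 21 had a higher mean in KO, with a median difference of 0.23. Leaving out KO pool 3 gave a G2 and M phase median of 0.20 and an S phase median of 0.09. Leaving out WT pool 2 gave 0.20 and 0.13, and leaving out WT pool 3 gave a G2 and M phase median of 0.46. The number of G2 and M phase genes at an unadjusted p under 0.05 became 2 when KO pool 3, KO pool 4, WT pool 1 or WT pool 2 was dropped, 6 when KO pool 1 was dropped, 8 when KO pool 2 or WT pool 4 was dropped and 14 when WT pool 3 was dropped. The number with a higher mean in KO became 19 of 24 when KO pool 3 was dropped and 21 of 24 when WT pool 1 or WT pool 2 was dropped. Ube2c, a ubiquitin-conjugating enzyme of mitotic exit, had a difference of 0.49, the proliferation marker Mki67 by 0.47, and the replication helicase subunits Mcm4 and Mcm2 by 0.41 and 0.51, each with a limma adjusted p of 0.967. The part of cycling cells in the Chek1 difference was not tested.

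The growth arrest targets held 3 of the 4 genes with an unadjusted p under 0.05, and these did not share a direction. They were 3 of 8 growth arrest and sestrin genes (37.5%, against 4.55% of all genes). That count was 1 without WT pool 2, and 2 without KO pool 1, KO pool 3 or WT pool 4. Over the 8 genes of this group 4 means were higher and 4 lower, with a median difference of 0.035 and a mean of -0.087. Gadd45a, whose small acidic protein slows the cycle and aids repair under stress, was at 6.23, 5.78, 6.58 and 6.21 in KO pools, against 6.85, 6.57, 6.60 and 7.14 in WT pools. Only KO pool 3 reached into the WT range, just above WT pool 2. The difference was -0.59 (SE 0.18; 95% interval -0.98 to -0.20), or 1.51-fold lower, with an unadjusted limma p of 0.00657 and an exact permutation p of 0.0571 (n = 4 each). It had the smallest p of the 31 genes and ranked 93 among all genes. It was also the member that stayed at an unadjusted p under 0.05 whichever pool was left out, with differences between -0.72 and -0.45. The authors' deposited table gives Gadd45a a signed fold of -1.507 and an unadjusted p of 0.03082.

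Plk2, a polo-like kinase induced by p53 and by growth stimuli, was at 7.23, 6.98, 5.85 and 6.76 in KO pools, against 7.25, 7.80, 6.97 and 8.04 in WT pools. KO pool 3 was the lowest and WT pool 4 the highest, and KO pools 1 and 2 lay above WT pool 3. The difference of -0.81 (SE 0.30; 95% interval -1.46 to -0.16), or 1.75-fold lower, was the largest of the list and had an exact permutation p of 0.0857 (n = 4 each). The unadjusted limma p was above 0.05 when KO pool 3 (difference -0.53), WT pool 2 (-0.71) or WT pool 4 (-0.63) was left out. Its relative Plk3, also a stress-induced polo-like kinase, averaged 6.09 ± 0.11 in KO and 5.94 ± 0.43 in WT (SD, n = 4 each). WT pool 2, at 5.31, was low for Plk3, and the difference of 0.15 was -0.064 without it.

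Genes induced within minutes of stimulation, which include targets shared with stress signalling, were highest in the same WT pool. All 22 immediate early genes had a lower mean in KO, with a median difference of -0.16. Of these, 1 had an unadjusted p under 0.05 (4.55%, and likewise 4.55% of all genes). Their mean deviation was -0.03, -0.10, -0.15 and -0.05 in KO pools, against -0.09, 0.09, -0.21 and 0.54 in WT pools, so WT pool 4 stood above all others. Dusp2, a phosphatase gene induced on activation, differed by -0.34 and Fosb, a subunit of the AP-1 transcription factor, by -0.35, each with a limma adjusted p of 0.967. WT pool 4 was also the highest pool for Gadd45a, Plk2 and Mdm2. Without WT pool 3 the immediate early median was -0.25. Without WT pool 4 it was -0.04, with 9 of 22 genes higher and 13 lower, the Gadd45a difference was -0.48, that of Plk2 -0.63 and that of Mdm2 -0.20.

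**Figure D3:**
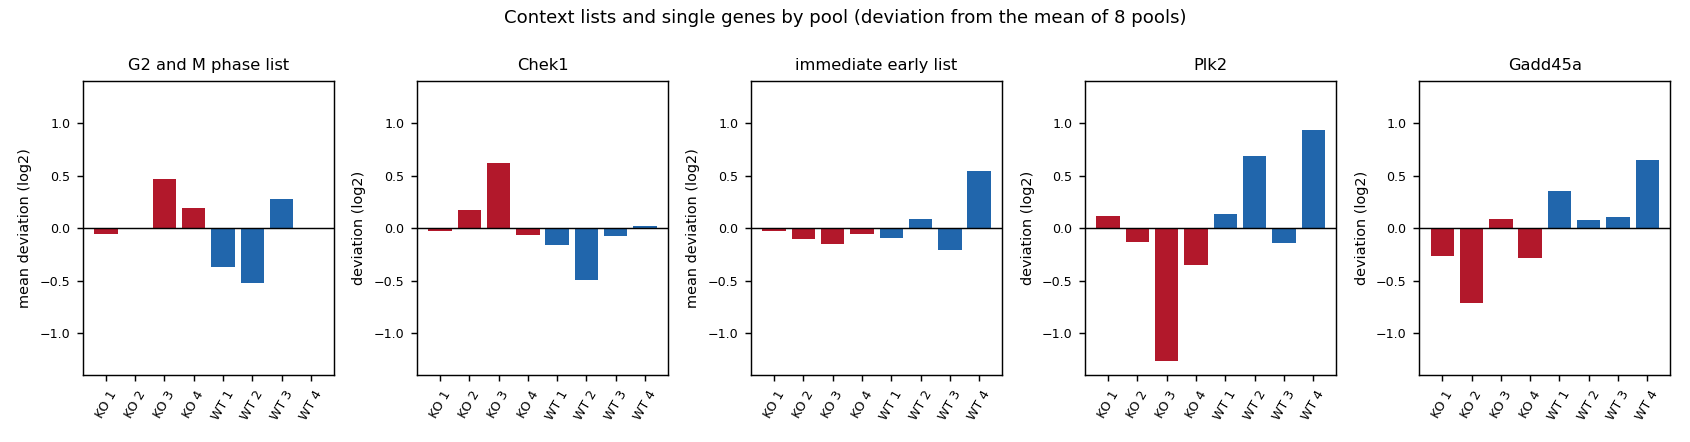
Deviation from the mean of 8 pools (vertical axis, log2) in each KO pool (red) and WT pool (blue), as the mean over 24 G2 and M phase genes and over 22 immediate early genes, and for Chek1, Plk2 and Gadd45a alone. KO pool 3 is highest for the G2 and M phase list and for Chek1, and WT pool 4 is highest for the immediate early list, Plk2 and Gadd45a.

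Ccng1, which encodes cyclin G1 and carries the near-complete p53 element shown above, went the other way. It was at 8.57, 7.96, 8.34 and 8.43 in KO pools, against 8.24, 7.50, 7.86 and 7.86 in WT pools. KO pools 1, 3 and 4 lay above all WT pools and KO pool 2 lay below WT pool 1. The difference was 0.46 (SE 0.17; 95% interval 0.09 to 0.84), or 1.38-fold higher, with an unadjusted limma p of 0.0202 and an exact permutation p of 0.0571 (n = 4 each). It was 0.34 without WT pool 2 and 0.38 without KO pool 1, with unadjusted limma p of 0.0644 and 0.0632. Thus among the p53 targets of this group Ccng1 was higher while Gadd45a and Plk2 were lower in KO, all short of the adjusted threshold.

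Zmat3 and the sestrins showed no separation. Zmat3, an RNA-binding zinc finger protein, averaged 5.16 ± 0.16 in KO and 4.97 ± 0.31 in WT, with WT pool 3 at 4.52 as its lowest. The sestrins restrain the growth kinase complex mTORC1 under stress. Sesn1 averaged 8.40 ± 0.21 in KO and 8.48 ± 0.23 in WT, Sesn2 5.74 ± 0.14 and 5.58 ± 0.16, and Sesn3, which is also a FOXO target, 7.23 ± 0.28 and 7.41 ± 0.05 (KO first, SD, n = 4 each). Their differences were -0.08, 0.16 and -0.18, and with 1 pool left out that of Sesn2 lay between 0.087 and 0.23 and that of Sesn3 between -0.28 and -0.078. Sesn3 was nearly constant among WT pools, between 7.36 and 7.48, and ranged from 6.93 to 7.55 among KO pools.

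Of the 9 cell death targets, 3 had a higher and 6 a lower mean in KO, with 0 at an unadjusted limma p under 0.05 (0%, against 4.55% of all genes). Fas, Eda2r, Perp, Phlda3 and Tnfrsf10b were dim, with means below 5.8, the median level of all genes. RMA compresses differences of dim probe sets, so small differences of these genes say little about their RNA. The differences of the 9 genes lay between -0.20 and 0.21. Fas, the death receptor, was at 4.26, 3.96, 4.83 and 4.33 in KO pools, against 4.71, 4.82, 4.19 and 4.47 in WT pools, with the highest value in KO and the groups interleaved. Tnfrsf10b, which encodes the mouse receptor for the death ligand TRAIL, averaged 5.54 ± 0.11 in KO and 5.58 ± 0.43 in WT, where pools 2 and 3 at 6.11 and 5.74 stood above pools 1 and 4 at 5.23 and 5.24. Eda2r, a receptor of the same family, averaged 4.43 ± 0.24 in KO and 4.35 ± 0.21 in WT. Aen, a nuclease that promotes apoptosis, had the largest positive difference of the group, with 6.29, 6.63, 6.67 and 6.75 in KO pools, against 6.21, 6.45, 6.79 and 6.06 in WT pools. Apaf1, the core of the caspase-activating apoptosome, was at 6.92, 7.03, 7.02 and 6.31 in KO pools, against 6.85, 6.62, 7.31 and 7.26 in WT pools, and its difference of -0.19 was -0.023 without KO pool 4.

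Ei24, which encodes an endoplasmic reticulum protein linked to autophagy, differed by 0.16, and by 0.014 to 0.28 with 1 pool left out. The remaining death genes differed by less than 0.1, with Perp, a membrane protein of desmosomes, at -0.02, Phlda3, an inhibitor of AKT at the membrane, at -0.05 and Trp53inp1, a stress protein that promotes p53-dependent death, at -0.06. Their pools ran from 5.02 to 5.79 in KO and from 5.21 to 5.77 in WT for Perp, and from 6.58 to 6.99 in KO and from 6.77 to 6.94 in WT for Trp53inp1.

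Among the DNA repair targets Ddb2 and Rrm2b had the largest differences, both with a lower mean in KO, and none passed the adjusted test. Ddb2, which recognises ultraviolet damage for nucleotide excision repair, was at 7.31, 7.47, 6.77 and 6.91 in KO pools, against 7.69, 7.69, 7.44 and 7.38 in WT pools. KO pools 1, 3 and 4 lay below all WT pools and KO pool 2 lay within their range. The difference was -0.43 (SE 0.16; 95% interval -0.79 to -0.08), or 1.35-fold lower, with an unadjusted limma p of 0.0203 and an exact permutation p of 0.0857 (n = 4 each). The unadjusted p was above 0.05 without KO pool 3 (difference -0.32), KO pool 4 (-0.37), WT pool 1 (-0.39) or WT pool 2 (-0.39). KO pools 3 and 4 were also the low KO pools for Mdm2 and Mdm4.

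Rrm2b, the ribonucleotide reductase subunit that supplies DNA precursors outside S phase, was at 6.65, 6.85, 6.74 and 6.94 in KO pools, against 7.07, 7.49, 6.72 and 6.90 in WT pools. Its difference of -0.25 was -0.10 without WT pool 2 and -0.36 without WT pool 3. Xpc, the partner of DDB2 in damage recognition, averaged 6.64 ± 0.15 in KO and 6.68 ± 0.16 in WT. Ercc5, the endonuclease that cuts beside the lesion, averaged 6.37 ± 0.17 and 6.40 ± 0.21, and Polk, a polymerase that copies past damage, 6.63 ± 0.30 and 6.62 ± 0.15 (KO first, SD, n = 4 each).

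**Figure D4:**
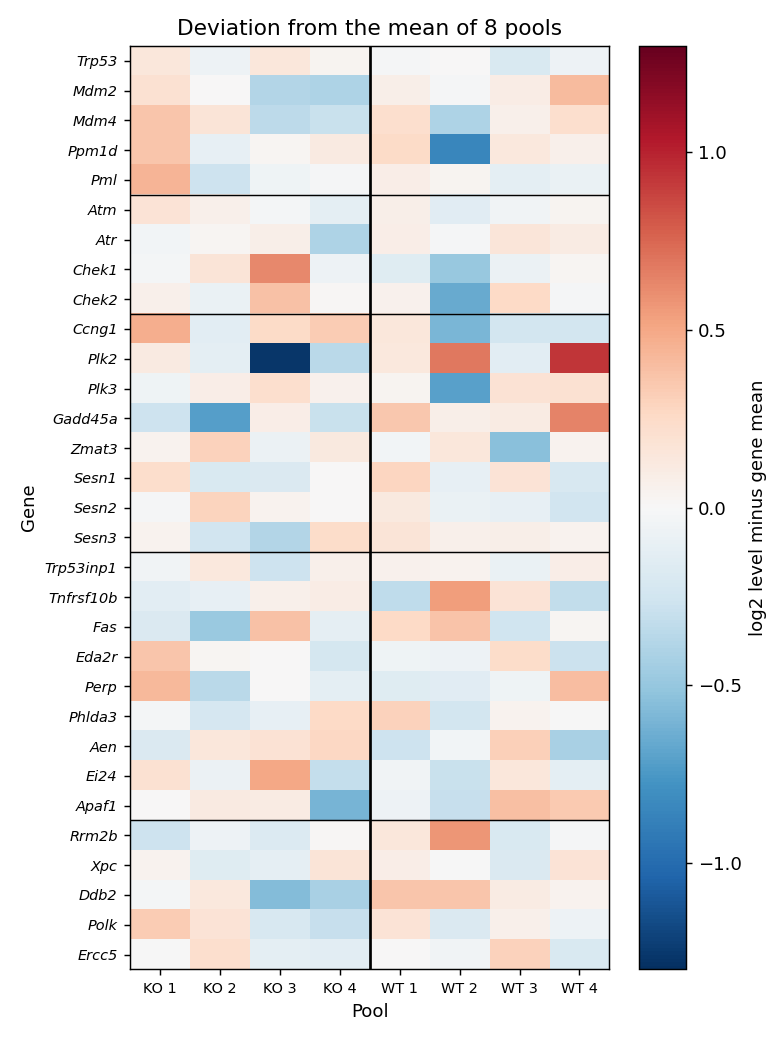
Heat map of each gene's log2 level minus its mean over 8 pools (colour, red above and blue below), with genes down the page in blocks of p53 and its regulators, damage kinases, growth arrest targets, cell death targets and DNA repair targets, and the 4 KO pools left of the 4 WT pools. WT pool 2 is low for Ppm1d, Chek1, Chek2, Ccng1 and Plk3, and no block has 1 colour throughout a group.

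For some pools, the share of the 31 genes at which they were highest or lowest differed from the share over all genes. WT pool 2 was the lowest of the 8 pools for 8 of them (25.8%, against 17.2% of all genes), among them Ppm1d, Chek1, Chek2, Ccng1 and Plk3. It was the highest for 2 (6.45%, against 18.2% of all genes), so over all genes it was extreme in both directions. Its array median, 5.69, was the highest. Its limma array weight, which is low for arrays that vary more, was the lowest at 0.665, with KO pool 2 next at 0.817. What sets WT pool 2 apart was not tested. KO pool 1 was the highest for 8 (25.8%, against 10.2% of all genes) and the lowest for 1, and KO pool 4 was the highest for 1 (3.23%, against 16.4%). WT pool 2 was also lowest for the S phase list, at -0.37, and for granulocyte and monocyte markers, whose mean deviation was -0.30, 0.61, 0.27 and 0.00 in KO pools, against -0.16, -0.71, 0.44 and -0.15 in WT pools. Of these 15 markers 10 had a higher mean in KO, with a median difference of 0.28 and 0 at an unadjusted limma p under 0.05. A fold of at least 1.5 was seen for 5 of them, and for 0.611% of all genes. Their median difference was 0.10 without WT pool 2 and 0.48 without KO pool 1. Erythroid markers deviated by -0.30 to 0.30 in KO pools and -0.33 to 0.09 in WT pools, with 6 of 10 means higher in KO. For B cell markers these ranges were -0.07 to -0.01 in KO pools and -0.15 to 0.19 in WT pools (3 of 9 higher), and for T and NK cell markers -0.12 to 0.05 in KO pools and -0.11 to 0.15 in WT pools (5 of 11 higher). For stroma and endothelium markers they were -0.11 to 0.23 in KO pools and -0.14 to 0.02 in WT pools (7 of 10 higher). The part of other cells in the values of the 31 genes was not tested.

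In the wider p53 programme the split depended on single pools. Of 34 further p53 targets, 16 had a higher and 18 a lower mean in KO, with a median difference of -0.01 and a mean of 0.024, and 2 had an unadjusted p under 0.05 (5.88%, against 4.55% of all genes). Leaving out WT pool 4 gave 22 higher and 12 lower, and leaving out KO pool 2 gave 21 and 13. The 2 genes were Rap2b, a small GTPase, which averaged 7.15 ± 0.20 in KO pools against 6.64 ± 0.23 in WT pools, and the lipase gene Abhd4, with 7.27 ± 0.16 in KO pools against 6.96 ± 0.18 in WT pools (SD, n = 4 each), each with a limma adjusted p of 0.967. The best known targets, picked after their values were seen, were Cdkn1a, Bax and Btg2. Cdkn1a, the CDK inhibitor p21, was at 5.75, 5.27, 5.46 and 5.46 in KO pools, against 5.33, 5.70, 5.40 and 6.13 in WT pools, again with its highest value in WT pool 4, and its difference of -0.15 was 0.01 without that pool. Bax, which permeabilises mitochondria, averaged 7.91 ± 0.12 in KO and 7.78 ± 0.32 in WT, and the antiproliferative gene Btg2 8.60 ± 0.20 and 8.72 ± 0.57 (KO first, SD, n = 4 each). The Btg2 difference of -0.12 was 0.14 without WT pool 4. Of 23 measured regulators and relatives of p53, 15 had a higher and 8 a lower mean. With 1 pool left out, 0 to 5 had an unadjusted p under 0.05, and with all pools 2 did (8.7%, against 4.55% of all genes). These were Hipk2, a kinase that phosphorylates p53, with a difference of 0.32, and Daxx, a histone chaperone of PML bodies, with 0.28.

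Upstream of p53, genes of damage sensing and recombination were mostly higher in KO. Of 27 sensors and checkpoint mediators 24 had a higher mean, with a median difference of 0.13, and 3 had an unadjusted p under 0.05 (11.1%, against 4.55% of all genes). Clspn, the mediator through which ATR activates CHK1, was at 6.87, 6.82, 6.96 and 7.08 in KO pools, against 6.48, 6.44, 6.48 and 6.69 in WT pools, with all KO pools above all WT pools (exact permutation p = 0.0286, the smallest that 70 assignments of 4 against 4 allow). Atmin, a cofactor of ATM, averaged 7.26 ± 0.23 in KO and 6.78 ± 0.21 in WT (SD, n = 4 each). Both had a limma adjusted p of 0.967. They were named for their large absolute moderated t in these same data, so the permutation p adds no separate support. The groups did not overlap for 2 of the 27 genes (7.41%, against 2.58% of all genes). The list's mean deviation was 0.04, -0.03, 0.17 and 0.13 in KO pools, against -0.05, -0.27, 0.09 and -0.07 in WT pools. Without WT pool 2, its lowest pool, 17 of 27 were higher with a median of 0.07, and without WT pool 3 the median was 0.19. Of 21 homologous recombination genes 17 had a higher mean, with a median of 0.14 and 0 at an unadjusted limma p under 0.05. That median was 0.05 without WT pool 2 and 0.22 without WT pool 3, and Dna2 and Eme1, both nuclease genes, differed by 0.28 and 0.31. These lists hold genes that are transcribed in S and G2 phase, and the part of cycling cells in them was not tested.

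The other repair pathways were mixed. Of 8 measured end joining genes 2 had a higher and 6 a lower mean, with Nhej1, which aligns broken ends for ligation, at -0.33, and the polymerase gene Polm at -0.11. Of 17 nucleotide excision repair genes, besides the members Xpc, Ddb2 and Ercc5, 11 were higher and 6 lower, with a median difference of 0.05 and a mean of -0.004. That split turned round when KO pool 3 was left out, to 6 higher and 11 lower, and when WT pool 2 was left out, to 7 higher and 10 lower. Ercc6, the transcription-coupled repair factor CSB, differed by -0.32 and Gtf2h4, a subunit of TFIIH, by -0.26. Of 20 measured base excision and mismatch repair genes 9 were higher and 11 lower, with Mlh3 at -0.23 and Pms2 at 0.19, and leaving out KO pool 2 or KO pool 4 gave 11 or 12 higher. Of 15 Fanconi anaemia genes, which repair crosslinks, 10 were higher and 5 lower, with a median of 0.02, and with 1 pool left out 9 to 11 were higher. Usp1, the deubiquitinase of that pathway, had the largest difference of all these lists, with 7.45, 7.07, 7.77 and 7.55 in KO pools, against 6.94, 6.81, 7.03 and 6.61 in WT pools. All its KO pools lay above all WT pools, and the difference of 0.61 (SE 0.16), or 1.53-fold higher, had a limma adjusted p of 0.967 and an exact permutation p of 0.0286 (n = 4 each). Usp1 was named for its large absolute moderated t in these same data, so the permutation p adds no separate support. Brip1, the helicase of the same pathway, differed by 0.32. Counting each gene once, 9 of 165 measured pathway genes outside the 31 had an unadjusted p under 0.05 (5.45%, against 4.55% of all genes), and the groups did not overlap for 7 (4.24%, against 2.58% of all genes).

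**Figure D5:**
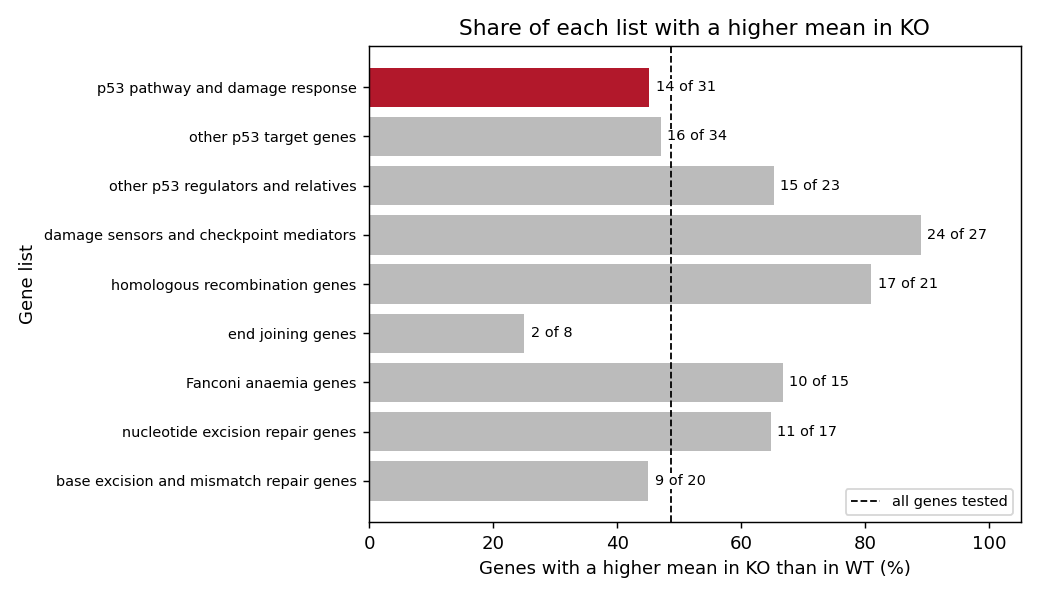
Share of genes with a higher mean in KO than in WT (horizontal axis, %) for the 31 genes (red) and for 8 further lists of the pathway (grey), with counts beside the bars and the share over all genes tested, 48.7%, as a dashed line. The 31 genes (14 of 31) and the further p53 targets (16 of 34) lie near the dashed line with all pools, and damage sensors (24 of 27) and homologous recombination genes (17 of 21) lie above it.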

How the data were processed

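RNA from 4 KO and 4 WT pools was hybridised to 1 Affymetrix array each; per the labels' protocols it was amplified with SPIA from very small amounts. The deposited values are log2 levels, made by the authors with RMA in Affymetrix Expression Console 1.3, per the submitters' processing notes; RMA hides shifts shared by most genes and compresses differences of dim probe sets. The deposited annotated table also holds the authors' signed fold and unadjusted p-value for KO against WT. For the probe sets, the sources used here name no genome build.

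Probe sets with exactly 1 symbol were kept (23586 of 28853), with the brightest per gene, leaving 21104 genes. They were compared in R 4.3.3 with limma 3.58.1 (lmFit, eBayes, no covariate, Benjamini-Hochberg over all genes, threshold 0.05), checked on simulated data. Exact 2-sided permutation tests used all 70 assignments of pools. With 4 pools per group the number of arrays limits precision. Every member is described; of each pathway or cell cycle list the 2 genes with the largest absolute moderated t are named, and Cdkn1a, Bax and Btg2 were added after their values were seen. Of 336 listed genes 2 were not measured and 11 were found under an older symbol. Members and lists were chosen with earlier results of these data known. Alternatives covered normalization, filters, probe set choice, weights, prior, block, test and each pool left out.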

Additional observations from a re-analysis of the deposited data

Results flagged for a closer look

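A single pool stood apart from the other 3 of its group, by Dixon's gap test at its 95% critical value, for 4 of the named genes. Ppm1d was at 6.25 in WT pool 2, against 7.17 to 7.35 in the other WT pools. Apaf1 was at 6.31 in KO pool 4, against 6.92 to 7.03 in the other KO pools. Abhd4 was at 7.04 in KO pool 3, against 7.32 to 7.37 in the other KO pools. Brip1 was at 6.54 in WT pool 3, against 6.02 to 6.07 in the other WT pools. Chance flags about 1 in 20 groups; among the 31 members 2 of 62 groups were so marked (3.23%), and over all genes 5.59%.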

How the results depend on the processing

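Across 18 alternatives, limma called 0 genes and 0 members at an adjusted p under 0.05, except with the replicate number as a replicate block, where 2 genes outside the list passed, Tjp1 and 7120432I05Rik (chosen after their values were seen), with 1689 at an unadjusted p under 0.05. The numbers do not pair the pools by any label. Deviations of same-numbered pools correlated by 0.287, 0.213, 0.305 and 0.062 for numbers 1 to 4, and each pool correlated best with its own number, a hint from the data only. The equal-variance test also called 0 genes after adjustment, with 913 at an unadjusted p under 0.05. The count of members at an unadjusted p under 0.05 was 4 as reported, 5 with the block, 1 with the equal-variance test, and between 1 and 6 with 1 pool left out. With the block, 8% of all genes had an unadjusted limma p under 0.05. That p was then 0.00134 for Ccng1, 0.00288 for Plk2, 0.00447 for Gadd45a and 0.00377 for Ddb2, each with an adjusted p of 0.583. The members' median difference of -0.029 lay between -0.053 and 0.015 with 1 pool left out and was 0.018 with arrays centred on their medians. Of 549 member values under the alternatives, 509 kept their direction, 40 changed sign and 0 passed the adjusted threshold; 16 of 31 members never changed sign. The causes of the sign changes were not tested. Taking the mean of the probe sets of a gene moved the Mecom difference from -0.1 to -0.39, without a sign change. A further quantile normalization turned Pml (-0.013), Atm (-0.0035), Perp (0.021), Phlda3 (0.0062) and Cd9 (-0.050); centring arrays on their medians turned Tnfrsf10b (0.011), Perp (0.025), Xpc (0.012) and Ercc5 (0.018); array weights turned Tnfrsf10b (0.028), Polk (-0.023) and Cd9 (-0.062). With 1 pool left out, signs turned for these genes, with ranges of KO minus WT over the 8 left-out fits: Pml from -0.092 to 0.15, Atm from -0.011 to 0.092, Eda2r from -0.027 to 0.17, Polk from -0.11 to 0.10, Perp from -0.17 to 0.11, Phlda3 from -0.15 to 0.041, Xpc from -0.10 to 0.018, Mdm4 from -0.20 to 0.049, Trp53inp1 from -0.11 to 0.025, Ercc5 from -0.11 to 0.066, Cd9 from -0.29 to 0.23, Procr from -0.29 to 0.041, Mecom from -0.22 to 0.058, Sesn1 from -0.17 to 0.003, Ppm1d from -0.053 to 0.31, Chek2 from -0.0066 to 0.30, Plk3 from -0.064 to 0.24, Tnfrsf10b from -0.15 to 0.14, Cdkn1a from -0.26 to 0.01 and Btg2 from -0.30 to 0.14. Without a sign change, leaving out 1 pool moved these differences by over 1.5 times at one end of their range: Polm from -0.21 to -0.0029, Dna2 from 0.13 to 0.40, Eme1 from 0.19 to 0.43, Mcm2 from 0.28 to 0.65, Fosb from -0.47 to -0.19, Fas from -0.36 to -0.073, Aen from 0.10 to 0.35, Zmat3 from 0.046 to 0.28, Atr from -0.22 to -0.068, Bax from 0.043 to 0.29, Nhej1 from -0.42 to -0.20, Mlh3 from -0.29 to -0.14, Pms2 from 0.12 to 0.23, Kit from -0.29 to -0.046, Hlf from -0.30 to -0.04 and Slamf1 from 0.14 to 0.39.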
